A study of Mus musculus with 11 samples.

Results

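The locus described here is the T cell receptor alpha-delta locus of the mouse with its flanks, mm9 chr14:52500001-55500000, as seen in Hi-C contact maps of Th1 cells. It was chosen by its very low contact counts per fragment end between chr14:54400001 and chr14:54800000, so its window levels are a description with no test. It spans 60 windows of 50 kb out of 49730 that held a fragment end on 20 chromosomes, and 1284 of 1386129 fragment ends. Its named genes are Trac, which encodes the constant region of the receptor's alpha chain, and Dad1, which encodes a subunit of the enzyme that attaches sugar chains to proteins in the endoplasmic reticulum and lies just beyond Trac.

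In Hi-C, chromatin is cut with a restriction enzyme and neighbouring ends are ligated, so a contact names 2 fragment ends that were near each other in a nucleus. The maps were of CD4+ Th1 cells, a class of helper T cells, grown from spleens of male C57BL/6 mice with anti-CD3 for 3 days and then with IL-2. They comprised 10 single cells, a pooled map of Bgl II single cells whose number is not given in the sources used here, and 1 ensemble map of a cell population. Cells 1 to 7, 9 and 10 (9 cells) and the ensemble were cut with Bgl II, and cell 8 with Dpn II. No label names the animal or the culture of a cell, so a spread between cells may be technical. Contact maps hold no expression, so the labelled cell type could not be checked against marker genes.

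The ensemble held 51834382 contacts, the pool 2294791 and the 9 Bgl II cells between 11156 and 30665 each. The pool contained 174955 of the contacts of these 9 cells, 7.62% of its own, so pool and cells are not independent. Pairs of cells shared between 0 and 6 contacts. The locus held 108938 contact ends in the ensemble, 3734 in the pool, 261 in the 9 cells summed and 27 in cell 8. All intervals below cover counting error only. Those on contact ends treat each end as independent, although a contact within a segment counts with both its ends, so they are somewhat too narrow.

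A developing T cell builds the gene of its receptor by V(D)J recombination. Enzymes cut the chromosome beside 1 V segment and 1 J segment, join them, and release the DNA between them as a circle that is not copied with the chromosome. At the alpha-delta locus the delta segments lie inside the alpha locus, between the V segments and the alpha J segments, and can be lost in this way. RefSeq, on the GRCm38.p6 assembly, listed 130 Trav and 6 Trdv segments, 2 Trdd, 2 Trdj and 60 Traj segments, with 3 olfactory receptor genes inside. Along the chromosome came the Trav and Trdv segments except Trdv5, then Trdd, Trdj, the delta constant gene Trdc and Trdv5. The Traj segments followed, and then Trac, Dad1 and Abhd4. Only names and order were taken from that assembly, since the maps are on mm9.

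The locus was cut into 5 segments. The left flank was chr14:52500001-52900000. The V segments were split at a long run of windows with few or no fragment ends, into a left part, chr14:52900001-53300000, and a right part, chr14:53300001-54400000. The low stretch was chr14:54400001-54800000, and the constant side, with Trac and Dad1, chr14:54800001-55500000. Of the 60 windows 39 had at least 10 fragment ends, the minimum used for a level. The right part of the V segments had 1 such window of 22, and the other 4 segments had them throughout.

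Contacts were counted per fragment end and divided by the median of the 50 kb windows of chromosome 14, which was 62.1 for the ensemble and 3.25 for the pool. The ensemble's low stretch had 833 contact ends at 179 fragment ends, which is 0.0749 of that median (95% Poisson interval 0.0699 to 0.0801). The constant side beside it was at 1.79 (1.77 to 1.80), with 56146 contact ends at 506 fragment ends. The left part of the V segments was at 1.32 (1.30 to 1.34) and the left flank at 1.53 (1.51 to 1.54). The low stretch thus lay between higher levels at both ends of the locus, with a step to the constant side beside it. Of the 5 segments only the low stretch and the sparse right part of the V segments (0.292 on 28 fragment ends) were below the chromosome's median. No measure of DNA copy number was used here, so fewer copies of a segment per cell and fewer contacts per copy cannot be told apart.

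The low stretch was the lowest segment in the pool too. It had 40 contact ends, 0.0688 of the median (0.0491 to 0.0936), while the constant side was at 1.01 (0.967 to 1.06), the left part of the V segments at 0.933 (0.862 to 1.01) and the left flank at 1.10 (1.04 to 1.17). The flanks stood above the chromosome's median in the ensemble and near it in the pool. Without the contacts of the 9 cells, the pool's low stretch had 35 contact ends and a level of 0.0652. The pool's level depended on the kind of contact: it was 0.0250 (0.0120 to 0.0459) for cis contacts over 20 kb, those within chromosome 14, and 0.227 (0.148 to 0.333) for trans contacts, those with other chromosomes.

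**Figure D1:**
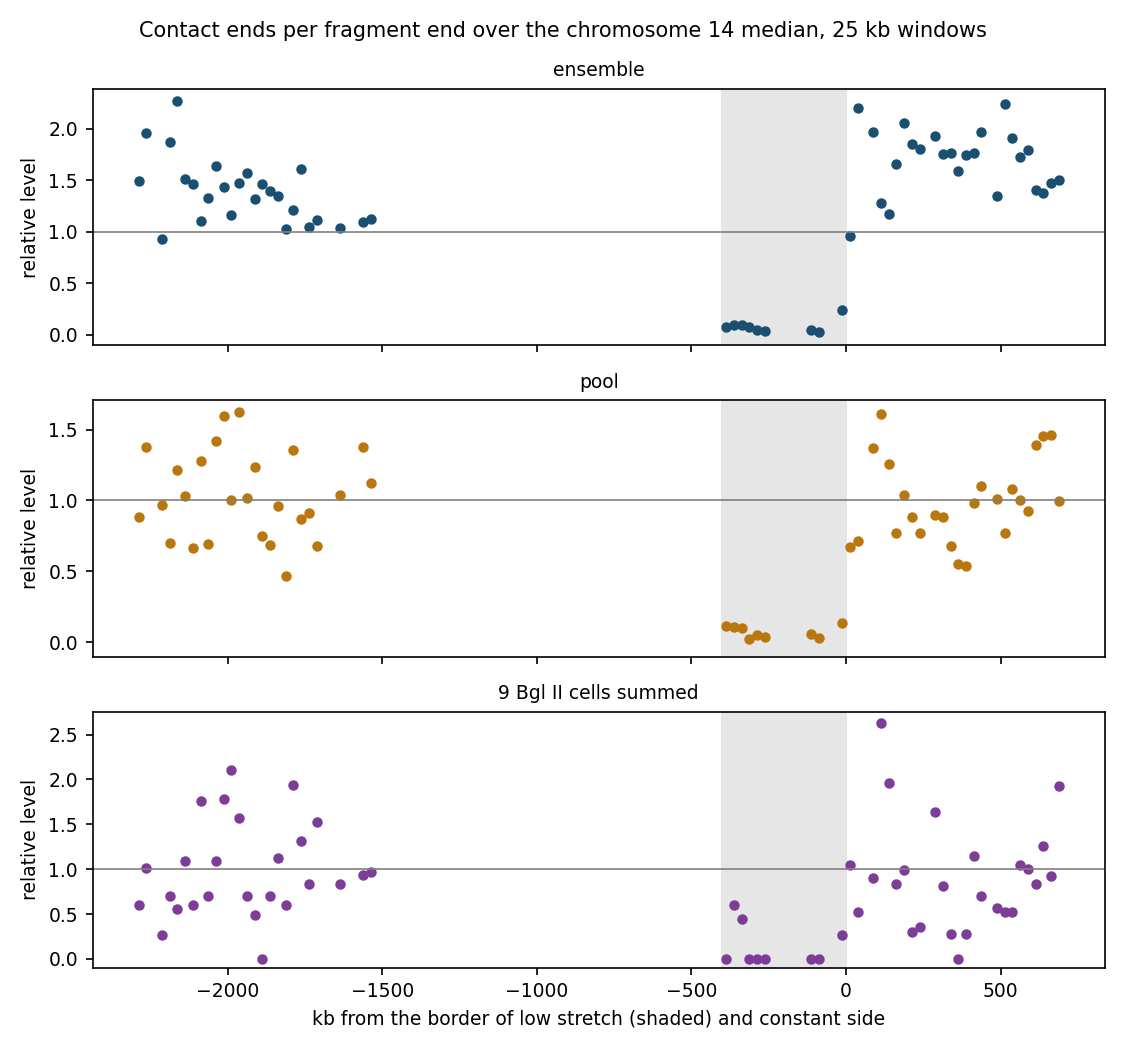
Contact ends per fragment end over the chromosome 14 median (vertical axis, a ratio with no unit) for 25 kb windows with at least 10 fragment ends, by distance in kb from the border of the low stretch (shaded) and the constant side, in the ensemble, the pool and the 9 Bgl II cells summed. In the ensemble and the pool the shaded windows lie near 0 and the windows on both sides around or above 1; the empty span to the left of the shading had too few fragment ends.

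Single windows of the low stretch were the lowest of all autosomes in the ensemble. The 5 lowest were chr14:54700001-54750000 at 0.0322 (40 contact ends at 20 fragment ends), chr14:54600001-54650000 at 0.0340 (38 at 18), chr14:54550001-54600000 at 0.0368 (32 at 14), chr14:54500001-54550000 at 0.0416 (93 at 36) and chr14:54650001-54700000 at 0.0425 (37 at 14). The intervals of these 5 overlap, so their order is not settled. The locus held the 9 lowest of 45826 autosomal windows, and the tenth, on chromosome 5, was at 0.248. Under the threshold of 0.2 lay 8 windows of the locus and 0 elsewhere, which is 0.0175% of the autosomal windows; nothing is read from this share, since the locus was picked for it. The member just inside the threshold was chr14:54150001-54200000 at 0.108, among the V segments, and the one just outside was chr14:54750001-54800000 at 0.223, beside the constant side. In the pool 8 windows of the locus were under 0.2, all in the low stretch, among 13 on the autosomes (0.0284%). In windows of 25 kb, 8 of the locus were under 0.2 in the ensemble, where 0.0124% of 72505 autosomal windows were, and 9 in the pool, where 0.0648% were.

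The highest windows of the locus lay on both sides of the low stretch. The window with Dad1, chr14:54850001-54900000, was the highest of the locus in the ensemble at 2.22 (2.15 to 2.30), with 3041 contact ends at 22 fragment ends. It was followed by chr14:55300001-55350000 at 2.17 (2.11 to 2.24), which its interval overlaps, and by chr14:52600001-52650000 in the left flank at 2.12 (2.07 to 2.18). The window with Trac, chr14:54800001-54850000, was at 1.75 (1.69 to 1.81) in the ensemble and at 0.692 (0.532 to 0.886) in the pool, where it had 63 contact ends. This window also holds part of the climb out of the low stretch described below, so its level is not that of Trac alone. Trac and Dad1 therefore lay on the high side of the step in the ensemble, and Trac's window lay below the chromosome's median in the pool.

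The promoter of Dad1 is shown because the step out of the low stretch ends in the windows of Trac and Dad1. RefSeq's window from 250 bases before to 50 bases after the gene's start lies at GRCm38.p6 chr14:54253880-54254179 on the minus strand; Trac had no entry. Capitals mark CCCTC, the letters that CTCF, a protein found at many borders of contact domains, is named for, read on either strand and here found as GAGGG at 2 places.
Dad1: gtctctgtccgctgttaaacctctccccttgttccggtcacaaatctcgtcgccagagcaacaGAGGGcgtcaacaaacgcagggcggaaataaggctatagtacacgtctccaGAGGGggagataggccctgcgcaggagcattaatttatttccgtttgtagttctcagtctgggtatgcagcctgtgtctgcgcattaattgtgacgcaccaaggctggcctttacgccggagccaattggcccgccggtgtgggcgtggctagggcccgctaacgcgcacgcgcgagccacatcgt
The letters CCCTC stood in 66.0% of 32851 promoter windows of this length, and 35.9% held at least as many matches. The window shares 299 bases with that of Abhd4, the next gene, which starts on the other strand.

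The step between the low stretch and the constant side was gradual. In windows of 10 kb the ensemble had 1.60 contact ends per fragment end at chr14:54700001-54710000 (5 fragment ends), 4 at chr14:54770001-54780000 (2) and 9.17 at chr14:54780001-54790000 (12). It then had 35.5 at chr14:54790001-54800000 (4), 52.0 at chr14:54800001-54810000 (8) and 94.5 at chr14:54810001-54820000 (2). Most of these windows held fewer than the minimum of 10 fragment ends, so their single values are not firm. In RefSeq's order the J segments of the alpha chain directly precede Trac; their mm9 positions were not used here. Windows of 10 kb were computed only from chr14:54700001 to chr14:54900000. Among them the highest was chr14:54840001-54850000 at 235, or 3.77 of the chromosome's median, and chr14:54850001-54860000 followed at 213 or 3.42. Each rests on 2 fragment ends. Most of the climb thus lay between chr14:54770001 and the end of the window with Trac.

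The other side of the low stretch had no such step, but few fragment ends to show one. In windows of 200 kb the ensemble had 62.5 contact ends per fragment end at chr14:53300001-53500000, or 1.01 of the chromosome's median, on 4 fragment ends. At chr14:53700001-53900000 it had 25.8 on 5 ends, at chr14:53900001-54100000 10.5 on 2 ends, at chr14:54100001-54300000 7.08 on 13 ends and at chr14:54300001-54500000 5.58 on 62 ends. Each of these windows was lower than the one before it, with no fragment end in chr14:53500001-53700000, over fragment ends too few for the single values to be firm. No level is given for the pool there, because only 35 of its 94 contact ends in the right part of the V segments (37.2%) lay within 5 bp of an ensemble fragment end, against 37 of 40 in the low stretch and 99.9% on the constant side.

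Single fragment ends showed the same contrast. In the low stretch the median fragment end had 3 contacts in the ensemble and the highest had 42, against medians of 106 on the constant side, 90 in the left flank and 76 in the left part of the V segments. In the low stretch 39 of 179 fragment ends (21.8%) were in 1 contact alone, where 0.689% of those on chromosome 14 were. Both sides of a cut were listed for 79.3% of fragment ends in the low stretch and for 94.5% on chromosome 14. A fragment end is counted here only if the ensemble lists it, so ends with no contact are missing from the denominator, and per kb the low stretch was at 0.0621 of the chromosome's median.

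**Figure D2:**
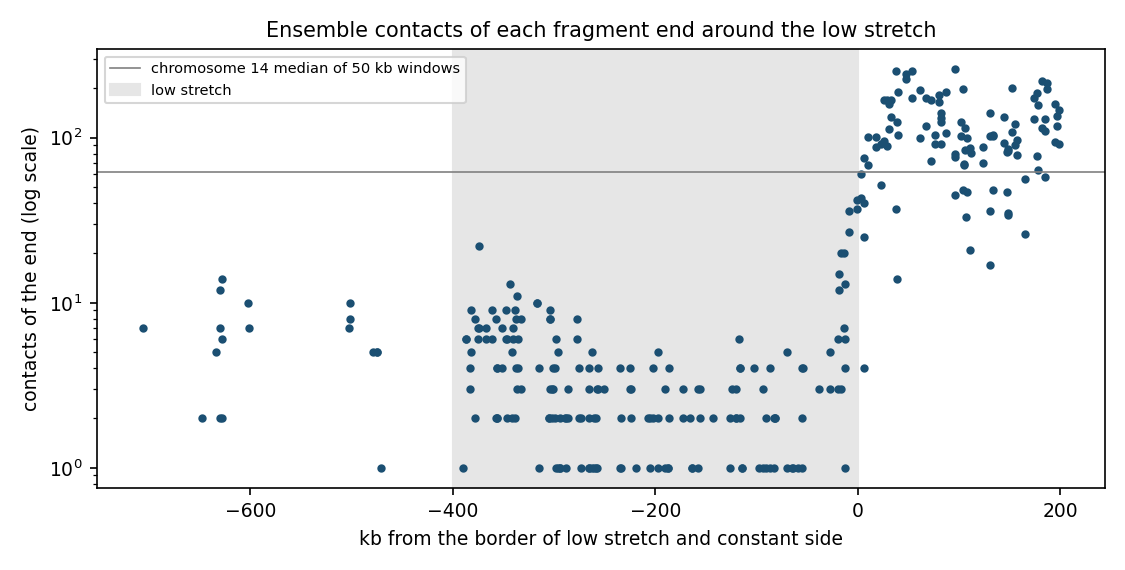
Each point is 1 fragment end of the ensemble, with its number of contacts (vertical log axis) by distance in kb from the border of the low stretch (shaded) and the constant side; the line is the chromosome 14 median of 62.1 per fragment end. The ends in the shaded stretch have at most 42 contacts, and they climb toward the border before the ends of the constant side spread around and above the line.

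In single cells the low stretch was almost empty. Cell 1 had 3 contact ends there and cell 5 had 2, and the other 7 Bgl II cells had 0, where between 2.73 and 7.79 per cell would follow from the number of fragment ends. Summed over the 9 cells, 5 contact ends stood against 46.0, a ratio of 0.109 (0.0353 to 0.254). Both ends of a contact of cell 1 are among these 5. Cell 1 decides much of this sum: without it the ratio was 0.0524. With so few contacts, a cell with 0 is not distinguishable from a cell at the ensemble's level.

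The few contacts of the low stretch can be named. Cell 1 had 1 contact within it, between chr14:54432317 and chr14:54442913, which are 10.6 kb apart. It had another between chr14:54451964 and chr14:21406034. The same fragment end at chr14:54451964 met chromosome 9 in cell 5, which also had a contact between chr14:54786023 and chromosome 13. Cell 8, cut with Dpn II, had 1 contact there, between chr14:54781879 and chromosome 7. None of the 10 cells joined the low stretch to the left flank, the V segments or the constant side. Over the 9 Bgl II cells 2.85 contacts with the constant side were expected by distance alone, by the method described below. With the contact levels of both segments included 0.279 were expected, so nothing is read from the absence.

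The other segments of the Bgl II cells lay around the level of chromosome 14. The constant side had between 4 and 24 contact ends per cell, 0.822 ± 0.311 of the number that follows from its fragment ends (SD, n = 9). The left flank had between 3 and 16, at 0.966 ± 0.318, and the left part of the V segments between 1 and 12, at 0.838 ± 0.503. For the low stretch the same ratio was 0.0848 ± 0.168. Its highest cell, at 0.385, was below the lowest cell of the constant side, at 0.485, and the lowest of the left flank, at 0.394. It overlapped the left part of the V segments, whose lowest cell was at 0.309. The 0.385 was that of cell 1, from 3 contact ends, both ends of 1 contact among them. The stretch was picked for its low level, so nothing is read from this separation.

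**Figure D3:**
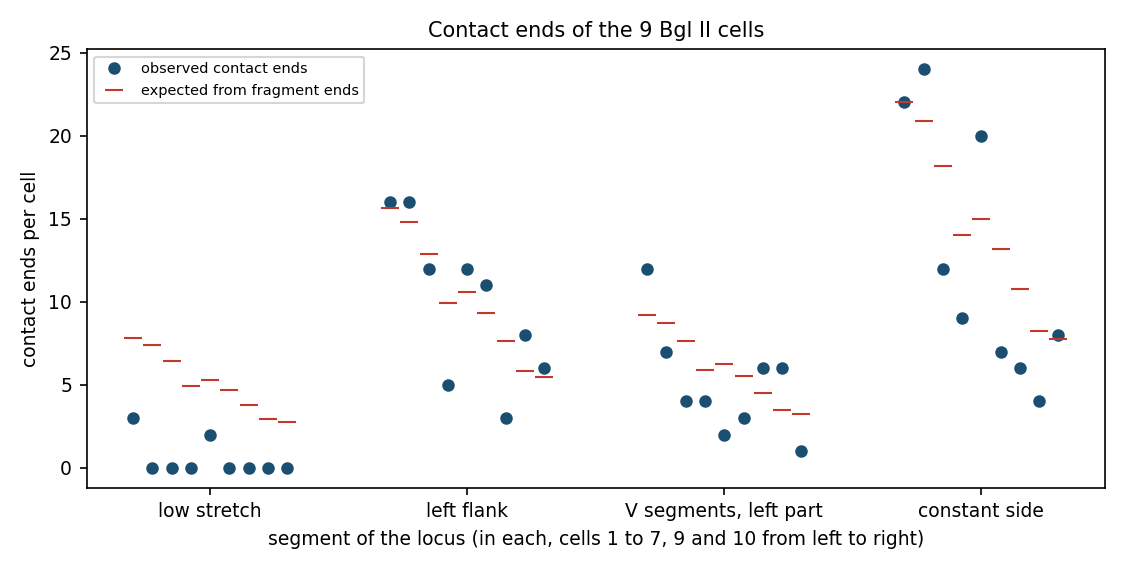
Contact ends in 4 segments of the locus (vertical axis, a count) in the 9 Bgl II cells, in the order cells 1 to 7, 9 and 10 within each segment; points are observed counts and dashes the counts that follow from the number of fragment ends and the cell's contacts on chromosome 14. Points of the low stretch lie at 0 in 7 cells and below the dash in all 9, while those of the other segments scatter around the dashes.

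Joining a V to a J segment brings the V side next to the constant side, so contacts between them were set against those at the same distance elsewhere. Expected contacts came from the contacts per possible pair of fragment ends at each distance on chromosome 14. In the ensemble the left flank and the constant side shared 383 contacts where 206 were expected, a ratio of 1.86 (1.67 to 2.05). Both segments also have many contacts of any kind, and when the expectation was multiplied by the contact level of both sides the ratio was 0.679 (0.613 to 0.751), which turns its direction. With cis contacts alone as that level it was 0.858 (0.774 to 0.948). Between these 2 segments an excess therefore stood only in the uncorrected value.

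Other regions give the scale of this ratio. Among 22362 pairs of blocks of the same sizes and gap along the autosomes, 1313 were at 2-fold or more (5.87%), and 7.72% were at or above the locus. With coverage in the expectation 3.95% were at 2-fold or more and 67.6% at or above the locus. The left flank and a block as far away on its other side shared 47 contacts against 137 expected, a ratio of 0.343 (0.252 to 0.456). The constant side and a block as far away on its other side shared 177 against 157, a ratio of 1.13 (0.966 to 1.30). With coverage these were 0.263 and 0.482, both below the 0.679 between left flank and constant side.

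The left part of the V segments shared 351 contacts with the constant side, against 140 expected, a ratio of 2.51 (2.25 to 2.78). With coverage it was 1.07 (0.958 to 1.18), an interval that includes 1, and with cis coverage 1.47 (1.32 to 1.63), which keeps the excess. Uncorrected, these contacts were as frequent as if all distances were 1225 kb shorter, out of 2050 kb between the segments' centres; for the left flank the same shift was 1185 kb out of 2450 kb. The shift takes no account of coverage, and the cause of the excess was not tested.

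Window by window, 17 windows from the left flank to the right part of the V segments had enough fragment ends, 8 of them in the left flank. Uncorrected, 11 of them had at least 2-fold of the expected contacts with the constant side, where 7.97% of autosomal windows set against blocks at such distances did. The highest was chr14:52850001-52900000, in the left flank, at 3.65 with 78 contacts. The next 2 lay in the left part of the V segments, chr14:53000001-53050000 at 2.77 with 52 and chr14:53100001-53150000 at 2.70 with 31. With coverage these were 1.34 (1.06 to 1.68), 1.04 and 0.994. Then 1 of 17 windows was at 2-fold or more, where 7.26% of autosomal windows were. That was chr14:54150001-54200000, at 2.56 on 7 contacts, which was at 0.496 without coverage.

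**Figure D4:**
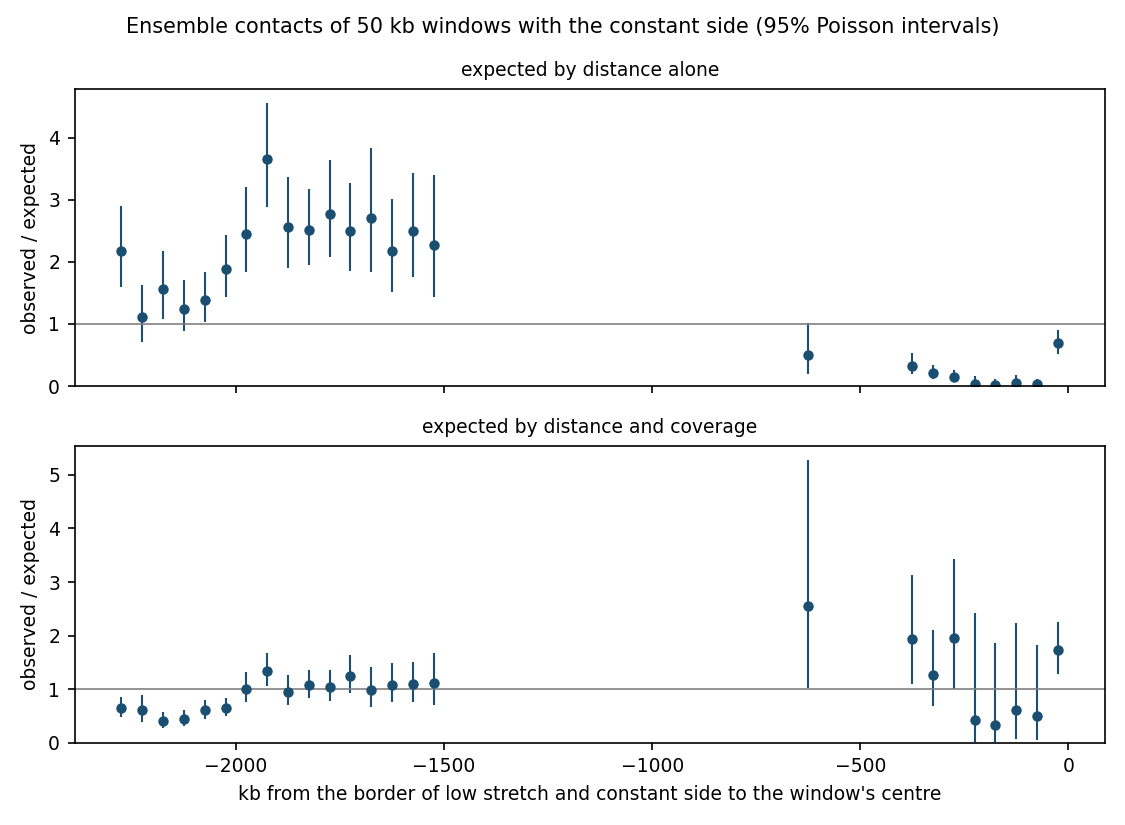
Ensemble contacts of 50 kb windows with the constant side over those expected (vertical axes, a ratio with no unit, with 95% Poisson intervals), by the distance in kb of the window's centre from the border of the low stretch and the constant side; the upper panel expects by distance alone and the lower by distance and coverage. The windows left of the empty span lie mostly between 1 and 3.65 above and around or below 1 in the lower panel, while those of the low stretch lie below 1 in the upper panel.

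The low stretch had few contacts with every other segment in the ensemble. It shared 101 with the constant side next to it, against 470 expected, a ratio of 0.215 (0.175 to 0.261), and with coverage 1.47 (1.20 to 1.79). It shared 6 with the left flank against 93.4, and 2 with the left part of the V segments against 68.0. Relative to its few contact ends, the stretch as a whole thus had contacts with the constant side above the expectation by distance. They were spread unevenly: chr14:54750001-54800000, beside the constant side, held 53 of them, at 1.73 with coverage. From chr14:54550001 to chr14:54750000 each window held 1 or 2, at 0.333 to 0.617, with intervals that include 1. From chr14:54400001 to chr14:54550000 the windows were at 1.26 to 1.96. Within itself the low stretch had 84 contact ends, and 115 met the rest of chromosome 14. The right part of the V segments shared 39 contacts with the constant side against 35.9.

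The pool and the cells held too few contacts for these comparisons. In the pool the left flank and the constant side shared 15 contacts against 15.0 expected, a ratio of 0.999 (0.559 to 1.65), whose interval lies below the ensemble's uncorrected 1.86. With coverage the pool's ratio was 0.895 (0.501 to 1.48), an interval that includes the ensemble's 0.679. The left part of the V segments and the constant side shared 10 against 10.5, and the low stretch and the constant side 3 against 43.5. With coverage these 2 ratios were 1.01 (0.483 to 1.85) and 0.956 (0.197 to 2.79). The right part of the V segments and the constant side shared 12, with no expectation given because most pool ends there lay off the ensemble's fragment ends. In the 9 cells the left flank and the constant side shared 0 contacts where 0.903 were expected, which allows a ratio of up to 4.08. The 1 single-cell contact between V segments and the constant side was in cell 3, between chr14:54171570 and chr14:54853632, 682 kb apart, with its second end in the window with Dad1. By contrast, between 0 and 6 contacts per cell lay within the left flank and V segments, and between 0 and 6 within the constant side.

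Insulation was measured as the log2 of contacts per pair of fragment ends that cross a border within 500 kb, over the median of chromosome 14, where a low value marks a border that few contacts cross. Both maps had their lowest value of the locus at chr14:54750000, within the low stretch and 50 kb before the constant side. It was -2.19 in the ensemble, from 53 contacts, and -2.79 in the pool, from 4 contacts. Of 2196 borders of chromosome 14 in the ensemble 0.137% were at or below it. Another minimum inside the locus was at chr14:53000000 in the ensemble, at 0.44, and at chr14:53050000 in the pool, at -0.51. Nearer the left edge the values dipped lower, to 0.28 at chr14:52600000 in the ensemble and -0.56 at chr14:52650000 in the pool. In the ensemble both of these dips were above the chromosome's median. The border at the left edge of the locus, chr14:52500000, was lower, at -0.69 in the ensemble and -1.41 in the pool. With coverage in the expectation the values at chr14:54750000 were 0.64 in the ensemble and 1.07 in the pool. Those at the left edge were then -1.48 and -1.20, the lowest of the borders with a value. The minimum at chr14:54750000 thus stood only in the uncorrected values, where the low contact level of the stretch enters the count.

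**Figure D5:**
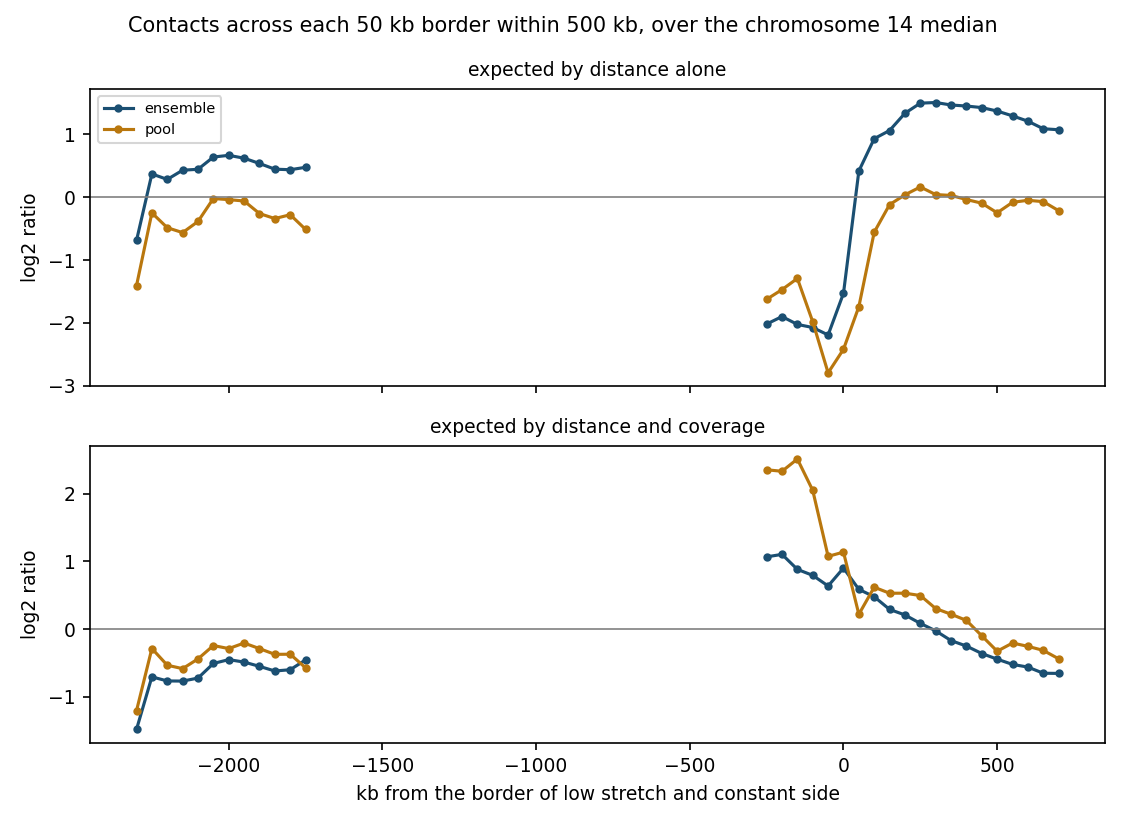
Insulation (vertical axes, log2 ratio to the chromosome 14 median) of each 50 kb border in the ensemble and the pool, by distance in kb from the border of the low stretch and the constant side; the upper panel expects by distance alone and the lower by distance and coverage. Both lines have their lowest point 50 kb before the border in the upper panel and lie above 0 there in the lower one; borders in the gap had fewer than 100 fragment ends on a side.

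The partner of a contact end was not used to choose the locus. In the low stretch, however, the share of trans partners is tied to the low contact level that was used. Contacts within the stretch fall with the level of both their ends, and trans contacts only with that of the end inside it. In the ensemble 59.1% of the locus's contact ends had a partner on another chromosome (95% Wilson interval 58.8 to 59.3), against 53.2% of the rest of chromosome 14. The share was 62.4% (59.1 to 65.6) in the low stretch, 60.7% (60.3 to 61.1) on the constant side, 59.6% in the left part of the V segments and 56.0% in the left flank. In the pool it was 31.5% (30.0 to 33.0) in the locus and 20.5% in the rest of the chromosome, and the low stretch was at 65.0% (49.5 to 77.9) of 40 ends while the constant side was at 33.8% (31.6 to 36.1). In the pool the interval of the low stretch lay above that of the constant side, and in the ensemble the intervals overlap. Because the share in the low stretch is tied to its contact level, nothing further is read from the pool's difference, and its cause was not tested.

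Over the 9 Bgl II cells the difference did not pass the test. The trans share of the locus ran from 10.3% to 61.1% with a median of 26.7%, and that of the rest of chromosome 14 from 6.58% to 29.7% with a median of 18.99%, so the ranges overlap. The locus was higher in 8 of 9 cells, by 10.1 ± 12.2 percentage points (mean ± SD, n = 9; exact permutation test of sign flips, two-sided p = 0.0312, Benjamini-Hochberg adjusted p = 0.125 over 8 tests). The smallest p that 9 cells allow is 0.00391. The constant side was higher by 17.1 ± 23.3 points in 6 of 9 cells (exact permutation p = 0.0625, adjusted p = 0.125). The left part of the V segments and the left flank differed by 6.67 and 1.03 points, with adjusted p of 0.519 and 0.910 in the same exact test.

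Long contacts within the chromosome were a smaller share in the locus. Of the ensemble's cis contact ends in the locus 35.0% had a partner over 10 Mb away, against 44.9% in the rest of chromosome 14. The constant side was at 26.3% and the low stretch at 22.7%, while the left part of the V segments was at 44.1% and the left flank at 43.7%, near the rest of the chromosome. In the ensemble the lowest shares were thus those of the low stretch and of the side of Trac and Dad1. The pool had 22.7% in the locus and 32.3% in the rest. There the constant side was at 15.6% (13.5 to 17.8), the left flank at 25.7% (23.0 to 28.6), also below the rest, and the left part of the V segments at 32.3% (28.1 to 36.8). In the cells the locus was at 4.35% to 41.7% with a median of 25.6%, and the rest at 27.7% to 46.1% with a median of 35.5%. The locus was lower in 7 of 9 cells, by -12.3 ± 16.1 points (exact permutation p = 0.0625, adjusted p = 0.125), so this difference did not pass the test either.

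The other loci that V(D)J recombination works on had no window under 0.2 in the ensemble. The lowest window was at 0.306 of its chromosome's median for the T cell receptor beta locus (chr6:41200001-41250000, rank 22 of 45826 windows, with 11 windows tested) and at 0.515 for the gamma locus, where 1 window could be tested. The immunoglobulin loci, which B cells rearrange, had lowest windows of 0.389 for the kappa light chain, 0.646 for the lambda light chain and 0.793 for the heavy chain. Their limits on mm9 were approximate.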

How the data were processed

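The deposited files list contacts, 1 line each, as genomic positions in bp, per the file headers. The submitters' processing notes name mm9. Aligner and read filters: not given in the sources used here. No contact was listed more than once in a file, so repeated ligations of 1 pair of ends count once. The 3 mitochondrial contacts of cell 8 were dropped.

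Distinct ensemble coordinates served as fragment ends. Contact ends per fragment end were computed in windows with at least 10 fragment ends. Expected contacts were smoothed over lags within 10%, and 100 fragment ends were required on each side of a border. The members, segments and tests were chosen with earlier results of these data known. Named windows were those of Trac and Dad1, the 5 lowest and 3 highest of the locus, and the 5 lowest of all autosomes. Also named were the 3 windows of left flank and V segments with the most contacts over expectation, and 2 insulation minima. Level, block and cell tests were tested on simulated data. Scripts ran on Python 3.11.15 with pandas 2.3.3, numpy 2.4.6 and scipy 1.17.1; matplotlib 3.10.9 drew the plots. The Dpn II cell stayed out of means. Alternatives were other windows, denominators, contact classes, expectations and block sizes, and each cell left out.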

Additional observations from a re-analysis of the deposited data

Results flagged for a closer look

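Of 14 sets of per-cell values from Bgl II cells, 2 held a cell far from the others by Dixon's criterion at 95%. Chance alone gives this in about 1 of 20 sets of normally distributed values. Many values here are small counts or shares of few ends, so that rate need not hold. In the right part of the V segments, cell 1 had 5 contact ends where 1.22 follow from the fragment ends, a ratio of 4.10, while the other 8 cells lay between 0 and 1.99. Of these 5 ends, 2 lay far from any ensemble fragment end. In the left flank, 100% of the cis ends of cell 7 had a partner over 10 Mb away, against 0% to 33.3% in the other cells. Cell 7 had 3 contact ends there, 66.7% of them trans, so its share rests on 1 cis end.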

How the results depend on the processing

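Of 152 alternative values 125 kept their direction and stayed within the tolerance, 17 moved and 10 reversed. The ensemble's low stretch (0.0749) was at 0.0666 against all autosomes, 0.0621 per kb, 0.0550 for cis contacts over 20 kb, 0.0877 for trans contacts and 0.0828 for fragment ends with both sides of the cut listed. The pool's (0.0688) was at 0.0250 for cis contacts over 20 kb and 0.227 for trans contacts. Ensemble windows under 0.2 numbered 4 in place of 8 with at least 20 fragment ends and 4 with both sides of the cut listed; the pool's numbered 4, 5 with both sides listed and 4 for trans contacts. Fewer windows pass where more fragment ends are needed. This does not cover the pool's count for trans contacts, where the ensemble kept 8 windows and the pool's level was higher, at 0.227. The ratio of contacts between left flank and constant side (1.86) was 0.679 with coverage, 0.858 with cis coverage, 2.18 with a left block of 200 kb and 2.09 with a right block of 300 kb. Windows of the left flank and V segments at 2-fold numbered 5 of 9 at 100 kb and 1 of 17 with coverage, in place of 11 of 17. The lowest insulation within 200 kb of the border of the low stretch and the constant side (-2.19, at chr14:54750000) was -3.97 with a window of 250 kb and 0.21 with coverage, then at chr14:55000000; beside the construction of these alternatives, the cause was not tested. Leaving out each cell in turn gave 0.0524 to 0.130 for the low stretch summed over cells (0.109), 6.95 to 12.6 points for the trans share of the locus and -15.0 to -9.70 points for its cis share over 10 Mb. The trans share of the left flank ranged from -5.26 to 4.09 points and the cis share of the left part of the V segments from -6.69 to 8.10 points, with the direction reversed without cell 3, 4 or 7 for the first and without cell 7, 9 or 10 for the second, and the second was -0.21 with all 10 cells. The 5 contact ends of the low stretch over 9 cells limit any statement on single cells. Cis coverage, coverage for windows against the constant side and for insulation, both sides of a cut, and ends within 5 bp were alternatives chosen after seeing the data. No paired analysis was possible because no label pairs the ensemble, the Bgl II cells and the Dpn II cell, and each single cell was compared with the rest of its own chromosome 14.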
